A study of Mus musculus with 26 samples.

Results

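The genes described here are 10 genes that mark endothelial cells, the cells that line blood vessels: Flt1, Kdr, Tek, Tie1, Cdh5, Pecam1, Cldn5, Esam, Adcy4 and Gata2. They were taken by symbol as endothelial markers, with earlier results of these data known, from the 31735 genes listed for all 26 libraries, and all 10 were found. In the brain, endothelial cells form the blood-brain barrier: tight and adherens junctions seal neighbouring cells, and receptors for vascular endothelial growth factors (VEGF) and angiopoietins maintain the vessel. Flt1 and Kdr encode the VEGF receptors VEGFR1 and VEGFR2, Tek encodes the angiopoietin receptor TIE2, and Tie1 encodes its partner TIE1. Cdh5 encodes VE-cadherin of adherens junctions, Cldn5 the tight junction protein claudin-5, and Pecam1 and Esam adhesion molecules of endothelial contacts. Adcy4 encodes an adenylyl cyclase, and Gata2 a transcription factor of endothelial and blood lineages.

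RNA was measured in the nucleus accumbens (ventral striatum) of Drd2-TRAP CP101 mice (FVB/N-Swiss Webster crossed to C57BL/6), which self-administered cocaine or saline intravenously with long access. All animals, controls included, carry the transgene, in which the Drd2 promoter drives an EGFP-tagged ribosomal protein, so polysomes of dopamine D2 receptor neurons can be pulled down with anti-EGFP antibodies. There were 24 pull-down (IP) libraries of ribosome-bound RNA: 2 of cocaine animals of the escalating group, 5 of cocaine animals of the nonescalating group, 8 of nonescalating animals after withdrawal, 6 of saline animals after withdrawal, and 3 of saline animals. Total RNA before pull-down gave 2 input libraries, 1 nonescalating and 1 saline. Library numbers fall into a higher block (library set 2, with 5 nonescalating withdrawal and 3 saline withdrawal libraries) and a lower one (library set 1, with all groups and both inputs). Neither the labels nor the protocols say whether animals were pooled, what separates the blocks or how long withdrawal lasted. The descriptions of the 5 nonescalating libraries carry the word for withdrawal although their titles do not; groups follow the titles.

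Counts in genes ran from 1.54 to 17.5 M (M, 1000000 counts) per pull-down library, with medians of 2.69 M in set 2 and 5.70 M in set 1, and were 37.5 M in the nonescalating input and 4.70 M in the saline input. Levels are given as counts per 1000000 (CPM) with edgeR's TMM factors, and 3 counts correspond to 0.173 to 1.96 CPM in a pull-down library. The 10 genes together held 500 to 3459 counts per library in set 2 and 3041 to 54052 counts per pull-down library in set 1. Drd2 checked the pull-down: it averaged 1825 CPM in the 8 saline and nonescalating pull-down libraries without withdrawal and 335 CPM in the inputs. The library labelled nonescalating replicate 4 went against this, with Drd2 at 243 CPM, below the 391 CPM of the nonescalating input and the 279 CPM of the saline input. Its median correlation with the other pull-down libraries (log2 CPM, across 15164 genes) was 0.741, and only saline replicate 1 (0.722) and nonescalating withdrawal replicate 5 of set 2 (0.739) had lower values, with the next library at 0.758 and the highest at 0.853. These 3 are called the doubted libraries, and counts are also given without them. Saline replicate 1 had the highest summed level of the 10 genes of all 26 libraries (4100 CPM), with Drd2 at 2045 CPM. The sum was 3400 CPM in nonescalating replicate 4 and 411 CPM in nonescalating withdrawal replicate 5 of set 2. The choice is thus not independent of the endothelial levels, and counts without these libraries are no independent check.

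By the GENCODE M21 annotation of GRCm38 (mm10), Flt1 lies at chr5:147561604-147726011 and Kdr at chr5:75932827-75978458, both on the minus strand. Tek is at chr4:94739289-94874976 (plus strand), Tie1 at chr4:118471191-118490061 (minus) and Cdh5 at chr8:104101625-104144511 (plus). Pecam1 is at chr11:106654217-106750628 (minus), Cldn5 at chr16:18776847-18778262 (plus) and Esam at chr9:37528078-37538319 (plus). Adcy4 is at chr14:55769057-55784095 (minus) and Gata2 at chr6:88193891-88207032 (plus). None of the 10 shares exon bases with another annotated gene, so reads in their exons are not split with an overlapping or antisense gene in this annotation. Merged exons run from 1.42 kb in Cldn5, which has 1 exon, to 13.5 kb in Flt1, which has 33.

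Promoter windows of the RefSeq table (GRCm38.p6, 250 bases before to 50 after a start) were matched for 7 of the 10 genes, in 8 windows; Cdh5, Esam and Pecam1 had no entry. ETS and GATA transcription factors are known for endothelial promoters, and the windows were searched on both strands for an ETS core (CNGGAAG) and a GATA core (GATAA). The 250 bases before the start are shown for the VEGF receptor genes Flt1 and Kdr, which differ in the motifs, and for Adcy4, which had the largest pull-down difference. They are read 5′ to 3′ on the gene's own strand, which is the minus strand for all 3, with motif matches in capitals, at chr5:147726012-147726261 (Flt1), chr5:75978456-75978705 (Kdr) and chr14:55784073-55784322 (Adcy4).
Flt1: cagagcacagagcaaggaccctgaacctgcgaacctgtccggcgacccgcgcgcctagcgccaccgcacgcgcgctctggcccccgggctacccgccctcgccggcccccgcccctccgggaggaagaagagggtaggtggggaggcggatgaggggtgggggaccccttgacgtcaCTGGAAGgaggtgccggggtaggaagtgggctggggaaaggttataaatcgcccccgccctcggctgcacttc
Kdr: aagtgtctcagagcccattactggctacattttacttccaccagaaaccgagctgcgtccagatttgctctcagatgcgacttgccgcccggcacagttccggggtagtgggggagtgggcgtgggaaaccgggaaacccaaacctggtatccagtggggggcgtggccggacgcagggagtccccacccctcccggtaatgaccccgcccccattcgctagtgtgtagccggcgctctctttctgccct
Adcy4: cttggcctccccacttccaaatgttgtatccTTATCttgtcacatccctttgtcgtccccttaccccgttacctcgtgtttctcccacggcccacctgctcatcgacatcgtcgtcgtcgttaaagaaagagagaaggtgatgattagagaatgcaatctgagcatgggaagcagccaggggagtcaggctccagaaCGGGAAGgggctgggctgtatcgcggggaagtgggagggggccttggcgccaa
The capitals in Flt1 mark an ETS core whose first base is 73 bases before the start. Tie1 holds 2 such cores on the opposite strand, 91 and 81 bases before the start. Adcy4 holds a GATA core on the opposite strand (TTATC) 219 bases before the start and an ETS core 53 bases before it, and Kdr holds neither. In Tek a GATA core lies 37 bases after the start, and the windows of Cldn5 and Gata2 hold neither motif; no 2 matches overlap. The ETS core was thus in 3 of 8 windows, against 31.9% of the 32851 windows in the table, and the GATA core in 2 of 8, against 25.4%, so the shares are near those of all promoters. A match describes letters only, and no match says nothing of the factor.

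The first question was how the endothelial mRNAs in the pull-down compare with those in total RNA. In the libraries without withdrawal (8 pull-down, nonescalating and saline, against 2 inputs, with agent as a term), all 10 genes had a positive log2 fold change, with a median of 4.11, against a median of 0.07 over all 14929 genes tested, of which 53% were positive. Adcy4, Gata2 and Kdr passed at an adjusted p under 0.05 (edgeR's quasi-likelihood test, Benjamini-Hochberg over all genes): 3 of 10, against 38 genes of 14929 (0.255%), all of them higher in the pull-down. In 8 of the 10 genes every pull-down library lay above both inputs, against 3.26% of all genes tested; the exceptions were Cldn5 and Tie1, each with 7 of 8. The comparison gives levels in the pull-down relative to total RNA, and why they differ was not tested. Both kinds of library are bulk RNA, in which more cells of a type and more RNA per cell cannot be told apart.

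Adcy4 had the largest difference. It stood at 77.1, 281, 29.98, 166 and 100.1 CPM in the nonescalating and at 133, 79.3 and 83.4 CPM in the saline pull-down libraries, against 0.414 CPM (15 counts) in the nonescalating and 1.60 CPM (8 counts) in the saline input. Every pull-down library was thus far above both inputs, and the fitted difference was 7.06 on the log2 scale (SE 1.12, adjusted p = 0.0172). Gata2 stood at 52.6, 115, 87.7, 118 and 81.6 CPM in nonescalating and at 74.1, 47.5 and 68.3 CPM in saline pull-down libraries, against 3.67 CPM in the nonescalating and 1.60 CPM in the saline input. Its pull-down values had the narrowest spread of the 10 relative to their mean (80.6 ± 25.9 CPM, SD, n = 8), and it was higher by 4.91 on the log2 scale (SE 0.72, adjusted p = 0.0172).

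Of the 4 receptor genes, Kdr alone passed. It stood at 144, 175, 60.0, 127 and 90.9 CPM in nonescalating and at 160.1, 40.0 and 101 CPM in saline pull-down libraries, against 4.28 CPM in the nonescalating and 9.62 CPM in the saline input. All 8 exceeded both inputs, and the fitted difference was 4.06 on the log2 scale (SE 0.78, adjusted p = 0.0395). Flt1, the gene with the most counts, stood at 1444, 2100, 454, 1553 and 1139 CPM in nonescalating and at 2137, 417 and 945 CPM in saline pull-down libraries, against 42.6 CPM in the nonescalating and 135 CPM in the saline input. The groups did not overlap, but the log2 fold change of 3.94 (SE 0.82) missed the threshold, with an adjusted p of 0.059. For Tek it was 4.16 (SE 1.001, adjusted p = 0.0822), and for Tie1 4.01 (SE 1.25, adjusted p = 0.23). Tie1 had the most unequal inputs, with 1.27 CPM in the nonescalating and 25.2 CPM in the saline input, and its lowest pull-down library (nonescalating replicate 3, 23.9 CPM) lay between them.

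No junction or adhesion gene passed. Cdh5 averaged 206 ± 86.2 CPM in the pull-down (SD, n = 8) and 17.4 ± 13.2 CPM in the inputs (SD, n = 2), which is 3.66 on the log2 scale (SE 0.77, adjusted p = 0.0634). Pecam1 averaged 192 ± 125 CPM in the pull-down and 13.6 ± 1.37 CPM in the inputs, or 3.84 on the log2 scale (SE 0.88, adjusted p = 0.072). Esam averaged 94.2 ± 72.5 CPM in the pull-down and 3.27 ± 2.64 CPM in the inputs, or 4.75 (SE 1.05, adjusted p = 0.0688). Cldn5 ran from 2.83 to 74.8 CPM in the pull-down, against 2.90 CPM in the nonescalating and 1.60 CPM in the saline input, or 4.20 (SE 1.13, adjusted p = 0.13).

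The calls rest on the 2 inputs. Without either of them none of the 10 genes passed, as with the 3 saline pull-down libraries alone, and 2 passed (Adcy4 and Gata2) without the doubted libraries. Of all genes, 1 passed without the saline input, 4 with the saline pull-down libraries alone and 40 without the doubted libraries, against 38 in the main fit. Without saline replicate 3 the count was 9, among 252 genes in all, and without nonescalating replicate 3 it was 7. DESeq2's Wald test and limma voom called all 10, among 757 and 1091 genes. Where both counts are given, they moved in the same direction, except without the doubted libraries (2 of the 10 against 3, and 40 genes against 38).

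**Figure D1:**
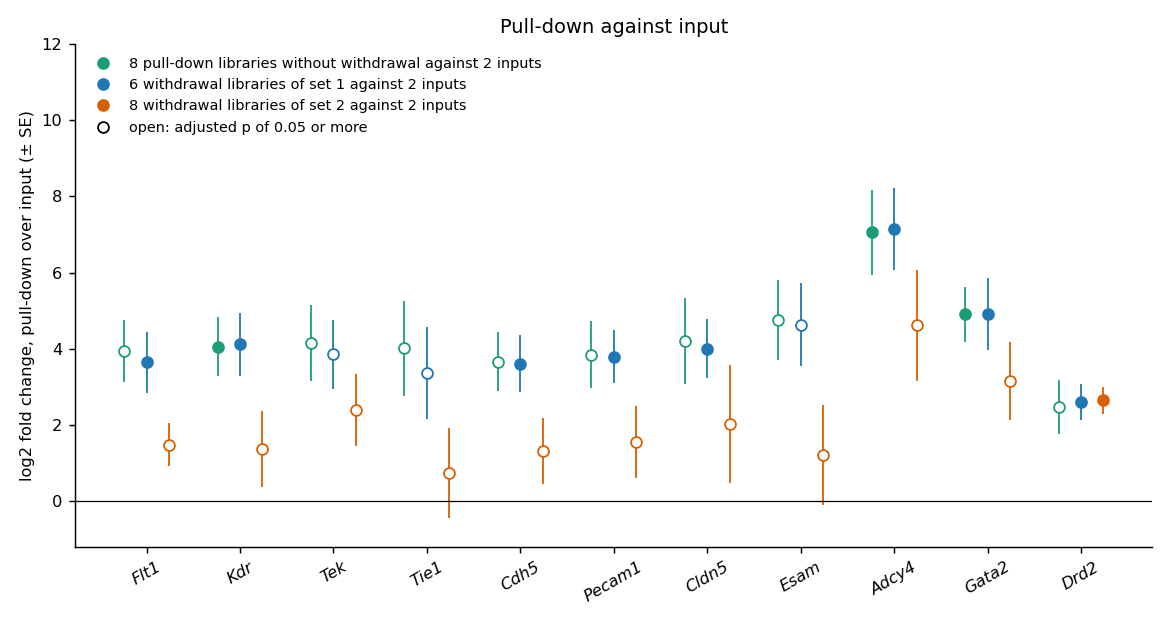
Log2 fold change of pull-down over input (± SE) for the 10 genes and Drd2 in 3 comparisons that share the 2 inputs; filled points passed at an adjusted p under 0.05. All 30 values of the 10 genes are above 0, and the set 2 values, from 0.73 to 4.61, lie below the other 2 for each of the 10 genes; Drd2 is at 2.46, 2.61 and 2.65 (no withdrawal, set 1 and set 2).

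The same inputs were set against the withdrawal libraries of each set, which shares the inputs between comparisons and leaves withdrawal and pull-down not to be told apart. Both inputs are of set 1, so for set 2 library set and pull-down cannot be told apart either. In set 1 (6 pull-down libraries against 2 inputs), all 10 genes were positive, against 53.1% of all genes, with a median of 3.93, and 7 of 10 passed, against 1.22% of 15484 genes (0.943% higher). Those that passed were Adcy4 (7.14, SE 1.08, adjusted p = 0.0096), Gata2 (4.91), Kdr (4.12), Cldn5 (4.005), Pecam1 (3.79), Flt1 (3.64) and Cdh5 (3.61). Tek (adjusted p = 0.0554), Esam (0.0574) and Tie1 (0.241) did not. All 6 libraries lay above both inputs for 9 of the 10 genes, all but Tie1, against 7.08% of all genes. The count was 0 without either input and 1 (Adcy4) without nonescalating withdrawal replicate 2, and 9 without saline withdrawal replicate 2. Of all genes, 0 passed without the nonescalating input and 378 without saline withdrawal replicate 2, against 189 in the main fit.

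In set 2 (8 pull-down libraries against 2 inputs), the 10 genes were again positive, against 49.1% of all genes, with a median of 1.52, but none passed, against 0.586% of 13642 genes (0.271% higher). At an unadjusted p under 0.05 there were 4, against 1111 of all 13642 genes (8.14%): Adcy4 (4.61, SE 1.46), Gata2 (3.15, SE 1.02), Tek (2.39, SE 0.95) and Flt1 (1.48, SE 0.56). Only Gata2 had all 8 libraries above both inputs, against 3.07% of all genes. DESeq2 called 2 of the 10 (Adcy4 and Gata2), among 288 genes in all, and limma voom 6, among 967. Pecam1, Cldn5, Cdh5 and Esam each had 1 or 2 set 2 libraries below both inputs, and Cldn5 had 0 counts in nonescalating withdrawal replicate 5, where 3 counts are 1.96 CPM. One input moves these values: the median was 1.02 without the nonescalating and 2.73 without the saline input, with Flt1 at 0.52 and 2.83 and Kdr at 0.37 and 2.74. Of the D2 neuron genes, Drd2 passed in set 2 at 2.65 (SE 0.35, adjusted p = 0.000312), and Adora2a, an adenosine receptor gene, had 1.42 (SE 0.42, adjusted p = 0.19). In set 1 Adora2a passed at 2.02 (SE 0.40, adjusted p = 0.0279), and without withdrawal it had 1.77 (SE 0.73, adjusted p = 0.48).

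The next comparison was set 2 against set 1, in the withdrawal groups that occur in both. All 10 endothelial genes had a negative log2 fold change, with a median of -2.20, against -0.09 over all 15854 genes tested, of which 54.1% were negative and 45.9% positive. Kdr, Cdh5, Flt1, Esam and Tie1 were lower in set 2 at an adjusted p under 0.05: 5 of 10, against 0.915% of all genes (145 genes, 120 of them lower, or 0.757%). No gene of the 10 had every set 2 library below every set 1 library, which held for 0.618% of all genes. Drd2 averaged 2039 ± 562 CPM in set 2 (SD, n = 8) and 2038 ± 780 CPM in set 1 (SD, n = 6), a log2 difference of 0.08 (SE 0.33, adjusted p = 0.953). Adora2a averaged 423 ± 157 CPM in set 2 and 631 ± 212 CPM in set 1, a log2 difference of -0.52 (SE 0.36, adjusted p = 0.576).

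Kdr stood at 33.7, 58.2, 4.30, 21.4 and 17.5 CPM in nonescalating and at 8.26, 13.7 and 15.7 CPM in saline withdrawal libraries of set 2, against 217, 138.5 and 81.4 CPM in nonescalating and 197, 43.1 and 52.6 CPM in saline withdrawal libraries of set 1. Only nonescalating replicate 2 of set 2 reached into the range of set 1, and the difference was -2.62 on the log2 scale (SE 0.46, adjusted p = 0.00215). Flt1 stood at 387, 462, 154, 165 and 262 CPM in nonescalating and at 123, 327 and 136 CPM in saline withdrawal libraries of set 2, against 2079, 1093 and 844 CPM in nonescalating and 1755, 279 and 663 CPM in saline withdrawal libraries of set 1. Here 5 of 8 set 2 libraries lay below all of set 1, and saline replicate 2 was the lowest of set 1; the difference was -2.18 on the log2 scale (SE 0.44, adjusted p = 0.0116). Of the angiopoietin receptor genes, Tie1 ran from 3.70 to 49.4 CPM in set 2 and from 19.3 to 259.7 CPM in set 1 (-2.43, SE 0.61, adjusted p = 0.0493), and Tek from 12.9 to 161 CPM in set 2 and from 71.7 to 340 CPM in set 1 (-1.48, SE 0.57, adjusted p = 0.241).

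Cdh5 stood at 67.5, 60.4, 22.9, 34.7 and 2.92 CPM in nonescalating and at 46.7, 44.8 and 24.3 CPM in saline withdrawal libraries of set 2, against 349, 297 and 170 CPM in nonescalating and 277, 60.8 and 159 CPM in saline withdrawal libraries of set 1. Of the set 2 libraries 7 of 8 lay below all of set 1, and the difference was -2.48 on the log2 scale (SE 0.45, adjusted p = 0.00343). Esam had 1 to 8 counts in 5 of the 8 set 2 libraries and 41, 146 and 46 counts in the other 3 (nonescalating replicates 1, 2 and 4). It stood at 13.6, 44.5, 2.39, 17.5 and 2.19 CPM in nonescalating and 2.28, 4.37 and 0.342 CPM (1 count) in saline withdrawal libraries of set 2, against 163, 48.9 and 26.3 CPM in nonescalating and 167, 20.1 and 36.0 CPM in saline withdrawal libraries of set 1. Its log2 difference was the largest in size of the 10, at -3.40 (SE 0.79, adjusted p = 0.0337). The other 4 did not pass: Pecam1 (-2.21, adjusted p = 0.0711), Adcy4 (-2.19, adjusted p = 0.135), Cldn5 (-1.98, adjusted p = 0.185) and Gata2 (-1.69, adjusted p = 0.116).

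The set difference was smaller without 2 libraries of set 1, which were chosen after seeing the data for their high levels of these genes. Replicate 1 of nonescalating withdrawal and replicate 1 of saline withdrawal had summed levels of 4058 and 3599 CPM, the highest of the withdrawal libraries, and Drd2 at 1470 and 881 CPM, the lowest of the 6 set 1 withdrawal libraries. Without both, all 10 values stayed negative (median -1.54, Kdr -1.91, Cdh5 -2.08, Tek -0.58), and none passed. Of all genes, 28 passed without both, against 145 with all libraries. Leaving out the highest libraries of set 1 shrinks the difference by construction, so the fall in calls says nothing particular of them. Without the first alone 2 passed (Cdh5 and Kdr), and without the second alone 4. The count was 4 without the doubted libraries and 3 (Cdh5, Flt1 and Kdr) without any 1 of 5 set 2 libraries: saline withdrawal replicate 1 or 3, or nonescalating withdrawal replicate 1, 4 or 5.

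**Figure D2:**
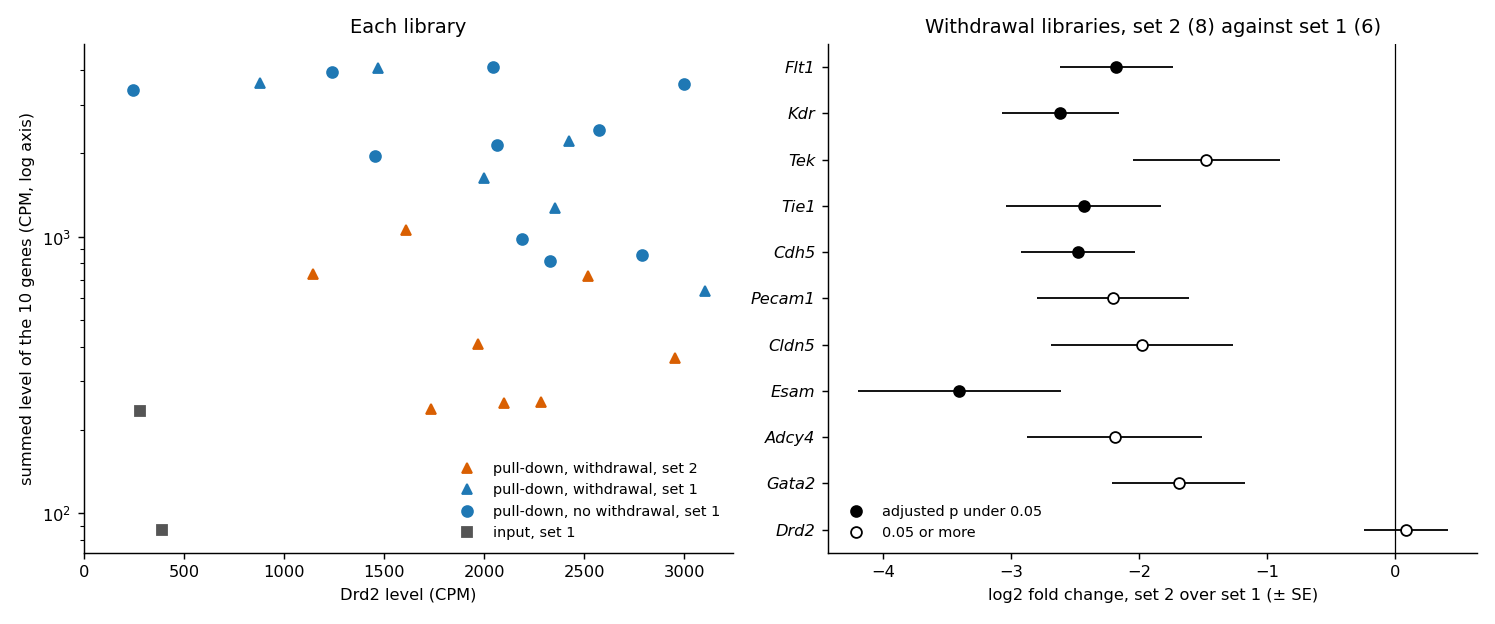
Left, the summed level of the 10 genes (CPM, log axis) against the Drd2 level (CPM) in each of the 26 libraries. Right, log2 fold change of set 2 over set 1 (± SE) in the withdrawal libraries, filled where the adjusted p was under 0.05. Set 2 libraries sit at 239 to 1055 CPM on the left, most of them below the set 1 withdrawal libraries (634 to 4058 CPM) at like Drd2 levels, and the inputs sit at 87.3 and 235 CPM.

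Markers of other cells were read in the same fits. Of 26 other endothelial genes, all were positive in the pull-down without withdrawal (median 4.24) and 4 passed: Mfsd2a (5.86), a lipid transporter gene of the blood-brain barrier, Vwf (5.43), which encodes von Willebrand factor, Robo4 (4.91) and Sox18 (4.57), a transcription factor gene. In set 2 against set 1, 25 of the 26 were negative (median -2.20) and 8 were lower, among them Robo4 (-2.70, adjusted p = 0.00373) and Vwf (-2.27, adjusted p = 0.00786). Pericyte and smooth muscle genes, which mark the mural cells around vessels, were positive in the pull-down in 13 of 13 tested (median 4.25), and Rgs5 (4.25, adjusted p = 0.0395) and Myh11 passed; Myh11 averaged 115 CPM in the pull-down and 0.0690 CPM in the inputs. They were negative in set 2 in 13 of 13 (median -1.87), and Rgs5 (-3.62, adjusted p = 0.000123), Cspg4 and Vtn were lower. Their summed level ran from 172 to 818 CPM in set 2, from 1371 to 4971 CPM in set 1 withdrawal, from 816 to 6121 CPM in the libraries without withdrawal (nonescalating and saline) and from 181 to 221 CPM in the inputs, so it moved with the endothelial genes in each of these comparisons.

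Fibroblast genes, which mark cells around larger vessels and meninges, had low levels but the same directions. In the pull-down without withdrawal 5 of 5 tested were positive with none passing, and in set 2 against set 1, 6 of 6 were negative (median -1.88) with none passing. They summed to 0.342 to 82.6 CPM in set 2, 13.6 to 154.7 CPM in set 1 withdrawal, 5.78 to 168 CPM without withdrawal and 3.01 to 4.83 CPM in the inputs. The part of mural and fibroblast RNA in the endothelial values was not tested.

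Lists of other brain cells had other values in the pull-down without withdrawal, with none passing: the median was -2.25 for 8 oligodendrocyte genes, -1.09 for 8 astrocyte genes, -2.15 for 5 D1 neuron genes, 0.39 for 10 microglia and macrophage genes and 1.23 for 5 blood genes (3 of 5 positive). The 5 D2 neuron genes were all positive, with a median of 1.77. Summed blood markers ran from 2.57 to 59.2 CPM in set 2, from 17.2 to 39.4 CPM in set 1 withdrawal and from 44.7 to 79.2 CPM in the inputs. D2 neuron markers summed to 3965 to 8132 CPM in set 2 and to 3489 to 8007 CPM in set 1 withdrawal. In set 2 against set 1, medians were -1.12 for the astrocyte genes, 0.88 for the microglia and macrophage genes and -0.72 for the blood genes (5 of 5 negative), with none passing.

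Among ligands and partners of the receptors, 12 of 15 tested genes of the VEGF and angiopoietin list were positive in the pull-down without withdrawal (median 1.33) and none passed. Ptprb, which encodes the endothelial phosphatase that acts on TIE2 and is also one of the 26 other endothelial genes, had the smallest p (4.06, SE 0.96, adjusted p = 0.0772) and stood at a mean of 1743 CPM in the pull-down and 111 CPM in the inputs. In the set 1 withdrawal libraries Ptprb (3.96, adjusted p = 0.014) and Notch1 (3.13, adjusted p = 0.0325) were higher than in the inputs. The ligand gene Vegfa is given for set 2, in other libraries than the values of Ptprb and Notch1 above, so they are not set against each other. It was at 35.2 CPM in set 2 and 89.0 CPM in the inputs, and did not pass in edgeR's test (-1.65, SE 0.63, adjusted p = 0.413). Of 13 junction partner genes 8 were positive without withdrawal (median 0.57), and Cgnl1, which encodes paracingulin, passed at 4.22 (SE 0.63, adjusted p = 0.0172) and was lower in set 2 (-1.93, adjusted p = 0.00786). Tjp1, the gene of the tight junction scaffold ZO-1, had 1.52 (SE 0.46, adjusted p = 0.212) in the pull-down without withdrawal.

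The 10 genes varied together from library to library. Over the 24 pull-down libraries, the correlation of each gene's log2 CPM (prior count 2) with the mean of the other 9 ran from 0.79 (Gata2) to 0.96 (Flt1), and within group and set from 0.68 (Cldn5) to 0.91 (Tek and Flt1). These libraries share groups and scaling factors, so the values are a description. The summed level ran from 239 CPM (nonescalating withdrawal replicate 3 of set 2) to 4100 CPM (saline replicate 1), and all 24 values lay above the 235 CPM of the higher input. Of all 10535 other genes ranked by correlation with the mean of the 10, the 5 highest were Hspg2 (0.96), Ltbp4 (0.96), Ahnak (0.96), Cgnl1 (0.96) and Tns2 (0.95). Drd2 had a value of -0.36 and the pericyte gene Rgs5 one of 0.92.

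The level of Flt1 also moved with how the reads of a library fell. Of 5 library measures compared with Flt1 log2 CPM over the 24 pull-down libraries, the share of records with several alignments gave Pearson r = -0.871 (permutation p = 1e-05, the smallest that 100000 permutations can give, adjusted 5e-05; Spearman rho = -0.899, p = 1e-05; r = -0.855 without the 2 farthest libraries). Within sets it was -0.861 in set 1 (n = 16, permutation p = 4e-05) and -0.704 in set 2 (n = 8, exact permutation p = 0.0509), where it was 0.0674 without the 2 farthest and so rests on them. The share of records in no annotated feature gave r = 0.666 (permutation p = 0.00053, adjusted 0.000883; rho = 0.664, p = 0.00063; 0.61 without the 2 farthest), with 0.79 in set 1 and 0.92 in set 2 (exact permutation p = 0.000818). Malat1, a nuclear RNA, gave r = 0.66 with Flt1 (permutation p = 0.00053, adjusted 0.000883; rho = 0.682, p = 0.00031; 0.673 without the 2 farthest), with 0.775 in set 1 and 0.772 in set 2. Drd2 (r = -0.351, permutation p = 0.086, rho = -0.308, p = 0.141, -0.212 without the 2 farthest) and total gene counts (r = 0.269, permutation p = 0.201, rho = 0.193, p = 0.366, 0.161 without the 2 farthest) did not pass.

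The share with several alignments had a median of 36.0% in set 2 and 19.1% in the withdrawal libraries of set 1, and median gene counts were 2.69 M in set 2 and 8.32 M there. The part of depth and alignment in the set difference was not tested.

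**Figure D3:**
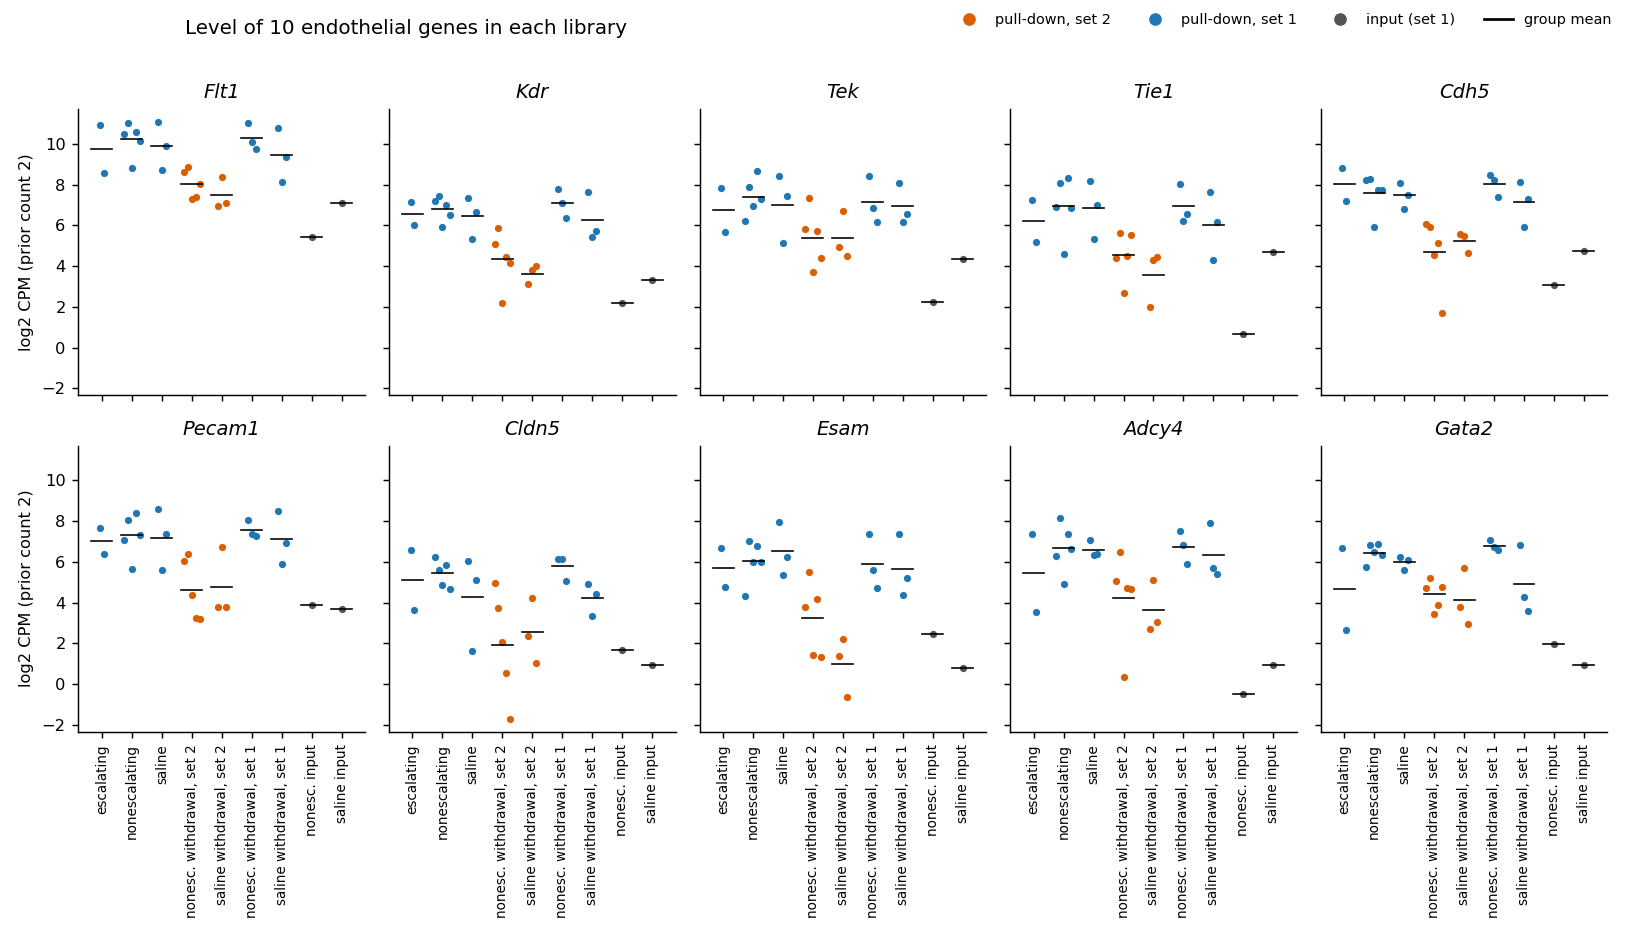
Level of each of the 10 genes (log2 CPM, prior count 2) in each library, by group and library set, with bars at group means; inputs are single libraries. Set 2 values (orange) sit below most set 1 pull-down values, and points of a group spread over several log2 units in most genes.

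Per kilobase of merged exon, Flt1 had the highest median over the 24 pull-down libraries (41.6 CPM per kb), followed by Cdh5 (36.4), Tek (21.2), Cldn5 (18.9), Pecam1 (18.1), Adcy4 (14.7), Esam (13.3), Tie1 (12.3), Gata2 (9.58) and Kdr (6.92). Neighbours in this order overlapped widely. Flt1 exceeded Cdh5 in 22 of 24 libraries, but Cdh5 exceeded Tek in 16 of 24, Cldn5 exceeded Pecam1 in 7 of 24 and Adcy4 exceeded Esam in 12 of 24. The order pools both sets and does not hold in each: of the per-kilobase sum of the 10 genes, Esam had a median share of 2.40% in set 2 and 6.99% in set 1 withdrawal, and Kdr 3.63% in set 2 and 4.09% in set 1 withdrawal. In both inputs Adcy4 lay below Kdr (median shares of 0.877% and 3.45%). Gata2 (median share 2.96%) differed between them. It had 0.297 CPM per kb in the saline input, below Kdr at 1.07, and 0.680 in the nonescalating input, above Kdr at 0.473. Of the summed CPM, Flt1 made up 43.8% to 64.6% in a pull-down library, 48.8% in the nonescalating input and 57.3% in the saline input.

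Cocaine, escalation and withdrawal were compared over the 24 pull-down libraries in 1 fit with library set as a term; the difference of the cocaine effect between sets came from a separate fit of the 14 withdrawal libraries (13609 genes). None of the 10 genes passed in any of the 6 group comparisons or the 2 differences of effects, and neither did any of the other genes tested (0%). At an unadjusted p under 0.05 there were 440 to 1388 of 15854 genes in the 6 group comparisons and none of the 10. DESeq2 called 0 to 225 genes in them and limma voom 0 to 8, but none of the 10. In most groups the summed level spread over several fold between replicates, as the values below show.

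Escalating libraries summed to 3573 and 815 CPM for the 10 genes, a wide gap between 2 libraries. Nonescalating libraries summed to 2433, 3924, 980, 3400 and 2147 CPM, and saline libraries to 4100, 862 and 1955 CPM. The 3 groups overlapped throughout. Median log2 fold changes over the 10 genes were -0.23 for escalating against saline (from -0.96 to 0.65, with 2 of 10 positive against 46.7% of all genes), -0.34 for escalating against nonescalating (from -0.85 to 0.46, 2 positive against 45.5%) and 0.18 for nonescalating against saline (from -0.68 to 0.50, 8 positive against 50.4%). Single libraries turn these medians. Without escalating replicate 1 they were -1.77 (against saline) and -1.88 (against nonescalating), and without escalating replicate 2 they were 0.58 and 0.28. For nonescalating against saline the median was -0.16 without saline replicate 3 and 0.81 without saline replicate 1. The median of all genes was -0.12 in escalating against nonescalating, and -0.26 with median-of-ratios scaling.

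The genes nearest to a difference in these comparisons were Cdh5 in escalating against saline (0.65, SE 0.73), Gata2 in escalating against nonescalating (-0.76, SE 0.82) and Esam in nonescalating against saline (-0.68, SE 0.90), each with an adjusted p of at least 0.808 in edgeR's test. Gata2 stood at 102 and 5.89 CPM in the escalating libraries, so its value turned to 0.16 without the second of them and was -3.93 without the first. Cdh5 stood at 451 and 147 CPM in them, and its value turned to -0.36 without the first.

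After withdrawal, nonescalating libraries summed to 733, 1055, 239, 364 and 411 CPM in set 2 and to 4058, 2219 and 1631 CPM in set 1. Saline libraries after withdrawal summed to 253, 723 and 251 CPM in set 2 and to 3599, 1273 and 634 CPM in set 1. For nonescalating against saline after withdrawal 9 of 10 genes were positive, against 53.5% of all genes, with a median of 0.60, but the sums of the groups overlapped within each set and none passed. Kdr had the smallest p (0.85, SE 0.46, adjusted p = 1 in edgeR's test), with 1.13 in set 2 alone and 0.62 in set 1 alone. Esam had 1.40 (SE 0.82) and Tie1 0.79 (SE 0.61).

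Withdrawal itself gave medians of -0.03 in nonescalating animals (from -0.21 to 0.81, 4 of 10 positive against 50.5% of all genes) and -0.29 in saline animals (from -1.28 to 0.0025, 1 positive against 47.5%), with the set difference held as a term. The saline median was -0.88 without saline withdrawal replicate 1 of set 1 and 0.35 without saline replicate 1, and the nonescalating one ran from -0.27 to 0.29 with 1 library left out. Esam had the extreme value in both: 0.81 (SE 0.94) in nonescalating and -1.28 (SE 0.90) in saline animals. The direct test of the difference between the cocaine effects with and without withdrawal gave Esam 2.09 (SE 1.21, adjusted p = 1 in edgeR's test) and 0.01 to 0.67 for the other 9, against 53.3% of all genes above 0; the median of the 10 was 0.31, and -0.26 without saline replicate 1. In set 1 alone Esam's difference was 0.80, and it was 0.96 without saline replicate 1, in which Esam stood at 250.5 CPM against 40.1 and 74.8 CPM in the other saline libraries. The difference of the cocaine effect after withdrawal between the sets passed for none of the 10, with values from -1.28 (Cldn5) to 2.74 (Esam, SE 1.44), which was 1.31 without saline withdrawal replicate 1 of set 1. Of the 10, 4 were positive, against 53.5% of all genes, and their median of -0.04 ran from -0.92 to 0.70 with 1 library left out.

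**Figure D4:**
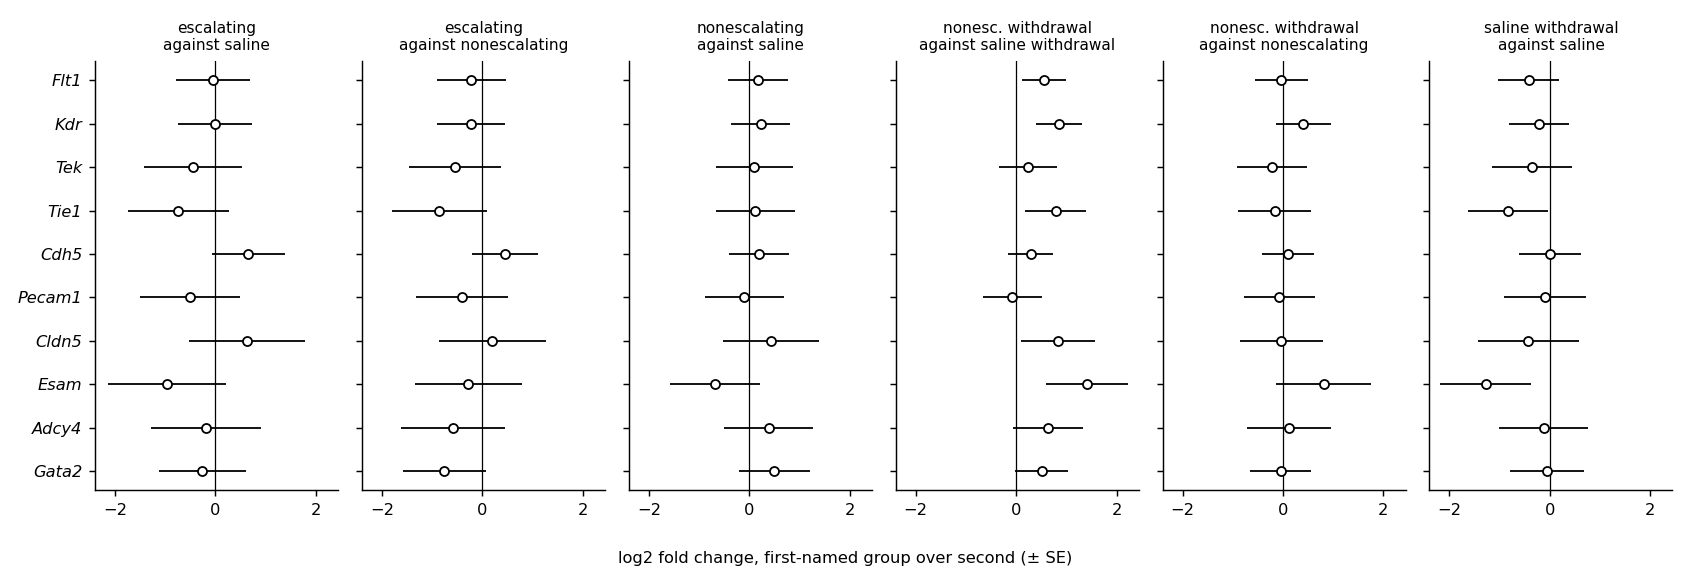
Log2 fold change (± SE) of each of the 10 genes in 6 group comparisons of pull-down libraries, first-named group over second, on 1 scale. All points are open because none passed; they run from -1.28 to 1.40, with standard errors from 0.44 to 1.18.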

How the data were processed

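The deposited files hold raw read counts per gene symbol, whole numbers with no normalization. Per the submitters' processing notes the authors used STAR 2.0.0e, HTSeq and mm10; gene models and strandedness: not given in the sources used here. Rows of the counter's own totals, and an unknown row of at most 1 count, stayed out, and 31735 genes listed in both library sets were kept. Groups follow the titles. Libraries of a group differed far beyond sampling noise (lowest chi-square per degree of freedom 20.4 over 57 pairs). Nothing says that replicates are separate animals, so p-values measure the spread between libraries.

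Tests used R 4.3.3, edgeR 4.0.16 (quasi-likelihood, robust, TMM, filterByExpr with a minimum count of 10, Benjamini-Hochberg threshold 0.05), with DESeq2 1.42.0 and limma 3.58.1 as alternatives, and were tested on simulated data. A standard error (SE) is the size of the estimate over the root of its F value. Set 2 has no input. The genes and marker lists were chosen with earlier results of these data known. Named besides the 10 genes are Drd2, Adora2a and Malat1, up to 4 genes a list by smallest p, and the 5 most correlated genes. Leaving out the doubted libraries, and the 2 highest withdrawal libraries of set 1, was chosen after seeing the data.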

Additional observations from a re-analysis of the deposited data

Results flagged for a closer look

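Libraries were flagged by Dixon's rule, which sets the gap to the nearest value against the range of the group. Saline withdrawal replicate 1 of set 1 stood far above the other 5 libraries of its group, which hold both sets. It had 1755 CPM of Flt1 (next highest 663), 197 of Kdr (52.6), 268 of Tek (105), 196 of Tie1 (71.0), 359 of Pecam1 (121), 167 of Esam (36.0) and 238 of Adcy4 (51.4), and the 10 genes summed to 3599 CPM (1273). Cdh5, Cldn5 and Gata2 were also highest of the group there, by gaps that the rule did not flag. In that library Drd2 stood at 881 CPM, the lowest of its group. Nonescalating withdrawal replicate 1 of set 1 was the highest of its group for each of the 10 genes. The rule flagged it above the other 7 only for Tek (340 CPM, next highest 161), Tie1 (259.7 and 94.96) and Esam (163 and 48.9). In all, 11 of 33 checks of a gene or the sum in a group found such a library. The nominal rate of about 1 in 20 holds for values of 1 normal population. The withdrawal groups pool CPM values of both sets, which differ in these genes, so the count cannot be read against that rate. These checks also share libraries.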

How the results depend on the processing

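With DESeq2's Wald test the counts of all genes that passed were 757 and 10 of the 10 endothelial genes (pull-down against input, no withdrawal), 1027 genes (set 1 withdrawal against input), 288 and 2 (set 2 withdrawal against input) and 679 and 8 (set 2 against set 1), and in the group comparisons 34 (nonescalating against saline), 143 (escalating against saline), 225 (escalating against nonescalating), 2 (nonescalating against saline after withdrawal), 30 (saline withdrawal against saline), and 11 and 18 (differences of effects). With limma voom they were 1091 and 10, 1122, 967 and 6, and 459 and 8 in the first 4, and 8 in escalating against nonescalating. With no filter on low counts they were 132 and 8 without withdrawal, 301 in set 1, 3 of the 10 between sets, and 40 in the difference between set effects; with a CPM of at least 1, 70 and 6 without withdrawal. All 24 pull-down libraries against the inputs gave 150 and 5, the saline ones alone 4 and 0. Between sets, only the groups compared gave 351 genes and 6 of the 10. Leaving out the doubted libraries gave 168 genes in set 2 against input, and leaving out the 2 highest withdrawal libraries of set 1 gave 382 genes in set 1 against input and 28 genes and 0 of the 10 between sets.

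With each library left out in turn, genes that passed ran from 1 to 252 without withdrawal, 0 to 378 in set 1 and 5 to 168 in set 2 against input, 50 to 249 between sets, 0 to 1 in escalating against saline and 0 to 2 in escalating against nonescalating; of the 10 they ran from 0 to 9, 0 to 9, 0 to 0 and 2 to 7 in the first 4. Across settings, all 10 genes were followed in the comparisons with input and between sets, and elsewhere only the gene with the smallest p. Turns of other genes in the group comparisons are therefore not listed. Among those followed, Esam turned in nonescalating against saline (0.60 against saline withdrawal of set 1, 0.26 without the doubted libraries). Esam also turned in nonescalating withdrawal against nonescalating (-0.33 by limma voom, -0.074 with the replicate block, -0.96 with no set term). With 1 library left out, Cdh5 turned in escalating against saline (-0.36 to 1.27) and Gata2 in escalating against nonescalating (-3.93 to 0.16). Tie1 in set 2 against input ran from -0.78 without the nonescalating to 4.57 without the saline input. Esam in nonescalating against saline ran from -1.08 to 0.44 with 1 library left out. Medians over the 10 genes that turned with 1 library left out were those of escalating against saline (-1.77 to 0.58), escalating against nonescalating (-1.88 to 0.28), nonescalating against saline (-0.16 to 0.81), saline withdrawal against saline (-0.88 to 0.35), nonescalating withdrawal against nonescalating (-0.27 to 0.29) and both differences of effects (-0.26 to 0.71 and -0.92 to 0.70). The cause was not tested, other than fewer libraries or genes by construction.

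Deviations of same-numbered libraries had a median r of 0.118 over 25 pairs (14 above 0.1), against -0.020 over 90 other pairs (23 above 0.1), and 9 of 21 libraries correlated best with their own number, a hint from the data only. Since not every same-numbered pair passed 0.1 and the labels tie the numbers to nothing, the libraries were not treated as paired. The replicate block gave 93 genes and 4 of the 10 between sets (Cdh5, Flt1, Kdr and Pecam1) and no call among groups. Depth limits the low genes in set 2 (Esam, Cldn5), and 2 inputs limit every comparison with input.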
